A study of Mus musculus with 6 samples.

Results

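The genes studied here lie in the distal part of mouse chromosome 12, from Ppp4r4 to Itgb8, outside the imprinted Dlk1-Dio3 region, and were compared between i2PS cells and E14TG2A cells. They are 56 genes taken by name, among 646 RefSeq genes of the same stretch in the GRCm38.p6 gene table. The stretch was selected on the difference in array signal between the same 6 arrays, so that every difference of these genes between the lines is given as a description, with no test of its own. Of the 56 genes, 51 had at least 1 named probe, with 110 probes in all. A probe had to be detected on all 3 arrays of at least 1 line to be used, which left 36 of the 56 genes among 8651 tested genes of the whole array. All 36 passed through the E14TG2A arrays, and 30 of them were detected on all 6 arrays. The other 15 genes with a probe and the 5 without one are accounted for below.

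The i2PS line comes from liver of the BALB/c strain, from hepatocytes that were brought to pluripotency inside the animal. E14TG2A is an embryonic stem cell line of the Sv129 strain, taken from the inner cell mass and bought from ATCC. Each line was read on 3 arrays, which the series calls biological replicates. Both lines were started on feeder layers of mouse embryonic fibroblasts in DMEM with LIF and then went through 3 passages on gelatin, by which the fibroblasts were gone according to the labels. Each group is 1 line, so that strain, tissue of origin and way of derivation cannot be told apart.

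Distal chromosome 12 is known for the Dlk1-Dio3 domain, whose genes are expressed from either the maternal or the paternal copy, and for the immunoglobulin heavy chain locus, which B cells rearrange. The genes around and between these landmarks share a place but no common pathway. They include Dicer1, the enzyme that cuts microRNA precursors, Dync1h1, the heavy chain of a microtubule motor, and Ckb, the brain-type creatine kinase.

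Promoters are shown for the members at both ends of the range of differences, since they share a stretch of chromosome and yet differ in size of change. On the probe that stands for each gene, Atg2b and Klc1 had the largest falls, and Amn and Tmem121 the differences nearest to 0. The sequences are from RefSeq on GRCm38.p6 and run 5′ to 3′ along the gene's strand, from 250 bases before to 50 bases after the start. They lie at chr12:105685192-105685491 on the minus strand for Atg2b, chr12:111758618-111758917 on the plus strand for Klc1, chr12:111270846-111271145 on the plus strand for Amn and chr12:113185653-113185952 on the plus strand for Tmem121. Capitals mark matches on either strand to 5 short motifs. The TATA box was searched as TATAAA. The box bound by the factor NF-Y was searched as CCAAT. The GC box of SP factors was searched as GGGCGG. The E-box was searched as CACGTG, and a motif of the YY1 type as GCCATNTT, where N is any base. None of these motifs contains another.
Atg2b: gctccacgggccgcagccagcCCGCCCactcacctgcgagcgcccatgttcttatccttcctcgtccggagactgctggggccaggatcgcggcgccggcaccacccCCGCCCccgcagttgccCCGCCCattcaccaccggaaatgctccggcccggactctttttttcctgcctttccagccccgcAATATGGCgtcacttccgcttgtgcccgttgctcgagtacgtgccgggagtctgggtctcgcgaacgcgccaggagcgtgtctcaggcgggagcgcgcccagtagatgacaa
Klc1: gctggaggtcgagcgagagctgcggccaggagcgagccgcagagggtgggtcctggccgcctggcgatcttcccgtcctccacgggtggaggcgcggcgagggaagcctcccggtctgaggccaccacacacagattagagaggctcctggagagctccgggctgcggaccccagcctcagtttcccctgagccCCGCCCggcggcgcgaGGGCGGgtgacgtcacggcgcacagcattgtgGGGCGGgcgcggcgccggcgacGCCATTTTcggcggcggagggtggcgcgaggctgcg
Amn: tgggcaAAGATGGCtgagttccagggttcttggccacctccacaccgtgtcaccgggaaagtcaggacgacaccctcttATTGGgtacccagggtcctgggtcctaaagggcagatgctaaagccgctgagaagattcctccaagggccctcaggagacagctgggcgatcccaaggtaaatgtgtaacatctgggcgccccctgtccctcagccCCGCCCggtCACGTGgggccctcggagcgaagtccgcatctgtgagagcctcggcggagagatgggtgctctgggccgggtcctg
Tmem121: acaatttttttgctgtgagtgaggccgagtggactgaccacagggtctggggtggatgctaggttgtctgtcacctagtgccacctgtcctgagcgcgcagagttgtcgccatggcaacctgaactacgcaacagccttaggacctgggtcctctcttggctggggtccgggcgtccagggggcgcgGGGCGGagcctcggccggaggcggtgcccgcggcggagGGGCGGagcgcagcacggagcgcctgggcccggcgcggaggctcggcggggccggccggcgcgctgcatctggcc

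The promoters of Atg2b and Klc1 hold 32 and 37 CpG dinucleotides, those of Amn and Tmem121 hold 15 and 29. A YY1-type match is present in those of Atg2b, Klc1 and Amn and is not among the letters of that of Tmem121. Promoters were matched for 53 members, 34 of them tested. The YY1-type motif matched in 6 of the 34 (17.6%), namely Amn, Atg2b, Bcl11b, Klc1, Mark3 and Papola, against 9.86% of the promoters of 7052 tested genes and 6.23% of 27025 promoters in all. The GC box matched in 70.6% of tested members, 67.5% of tested genes and 35.9% of all genes. For CCAAT these shares were 41.2%, 39.8% and 37.9%, and for the E-box 5.88%, 10.8% and 7.24%. The TATA box matched in Bcl11b, Ckb and Wdr60, which is 8.82% of tested members, against 7.03% of tested genes and 14.2% of all genes. The median number of CpG was 29.5 in tested members, 22 in tested genes and 7 in all genes. These matches describe letters only.

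The arrays are Illumina bead arrays of biotin-labelled RNA, on which the average probe had a signal of 340 to 357 in i2PS and 228 to 403 in E14TG2A. The lowest value belongs to the first E14TG2A array, on which 13994 probes passed detection, whereas the other arrays had 14953 to 15922. All 10 pluripotency markers examined, with Pou5f1, Sox2 and Nanog among them, were detected on every array, and their normalized signals summed to 56075 to 57585 in i2PS and 46651 to 51039 in E14TG2A. The brightest, Dppa5a and Esrrb, weigh most in these sums. Of the 10 markers, Esrrb, Tdgf1 and Zfp42 were called higher in i2PS and 7 were not called, Pou5f1, Sox2 and Nanog included. Of 8 hepatocyte markers, 7 were detected on no array, Alb and Afp included, and Hnf4a on some. Their sum was 163 to 175 in i2PS and 167 to 173 in E14TG2A. Of 8 fibroblast markers, 5 were detected on no array, Col1a1 and Dcn on some, and Thy1 on all, with sums of 239 to 290 in i2PS and 215 to 243 in E14TG2A. Thy1 was called higher in i2PS, at 6.56, 6.99 and 7.01 on the log2 scale in i2PS, against 6.09, 6.20 and 5.80 in E14TG2A, and the other fibroblast markers were not tested. Their part in the results was not tested.

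Nearly all tested members were lower in i2PS. A gene was called when its adjusted p in a limma fit over all 8651 genes was under 0.05, which held for 44.0% of genes, 20.4% lower and 23.5% higher. Of the 36 members, 32 were called lower and 0 higher, and Amn, Eml1, Tmem121 and Wdr60 were not called. Nothing is read from this count, since the same comparison marked the stretch. The median difference of the members, i2PS minus E14TG2A on the log2 scale, was -0.79, which is 0.578 times the E14TG2A signal. It was -0.76 with the 2 members that no i2PS array detected, Ppp4r4 and Bcl11b, set at the bounds given below. The median over all tested genes was 0.03. Differences ran from -1.64 for Atg2b to 0.26 for Tmem121, and 12 members detected in i2PS were at least 2-fold lower. Among all 8651 tested genes, 319 that were detected in both lines were at least 2-fold lower. All i2PS arrays lay below all E14TG2A arrays for 33 members, as they did for 25.6% of all tested genes.

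The shift was of like size on each i2PS array. Relative to the mean of the E14TG2A arrays, the median member stood at -0.80, -0.86 and -0.82 on i2PS replicates 1, 2 and 3. Over all tested genes the median on these arrays was 0.03, 0.04 and 0.03. The members' medians on E14TG2A replicates 1, 2 and 3, at -0.02, 0.00 and 0.05, lie near 0 because the mean of that line was subtracted. On every i2PS array 35 of the 36 members were below the E14TG2A mean. Over all 8651 tested genes, the mean difference was below 0 for 4055. As the same comparison marked the stretch, these values are descriptions. In the main fit 3803 of the 8651 tested genes were called in either direction. Without E14TG2A replicate 1, the dim array, 4209 of them were called, and of the members 31 lower and 0 higher. With arrays scaled to equal medians in place of quantiles, 884 were called, and of the members 12 lower and 0 higher. These 12 members were Ppp4r4, Atg2b, Bcl11b, Dync1h1, Cinp, Cdc42bpb, Ckb, Klc1, Zfyve21, Pacs2, Mta1 and Crip2. With no background correction, 13 of the 32 called members had a fall more than 1.5 times smaller. The difference was then -0.19 in Evl, -0.22 in Ncapg2, -0.23 in Brf1, -0.24 in Ppp1r13b, -0.39 in Bag5, -0.45 in Rcor1, -0.46 in Tecpr2 and -0.51 in Btbd6. Setd3, Ccnk and Mta1 are described below with that value. With no background correction Ppp4r4 differed by -0.46 and Bcl11b by -0.45, so that their bounds given below hold on the background-corrected scale only. The RNA came from whole cultures, in which fewer cells expressing a gene and less of its RNA per cell cannot be told apart.

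**Figure D1:**
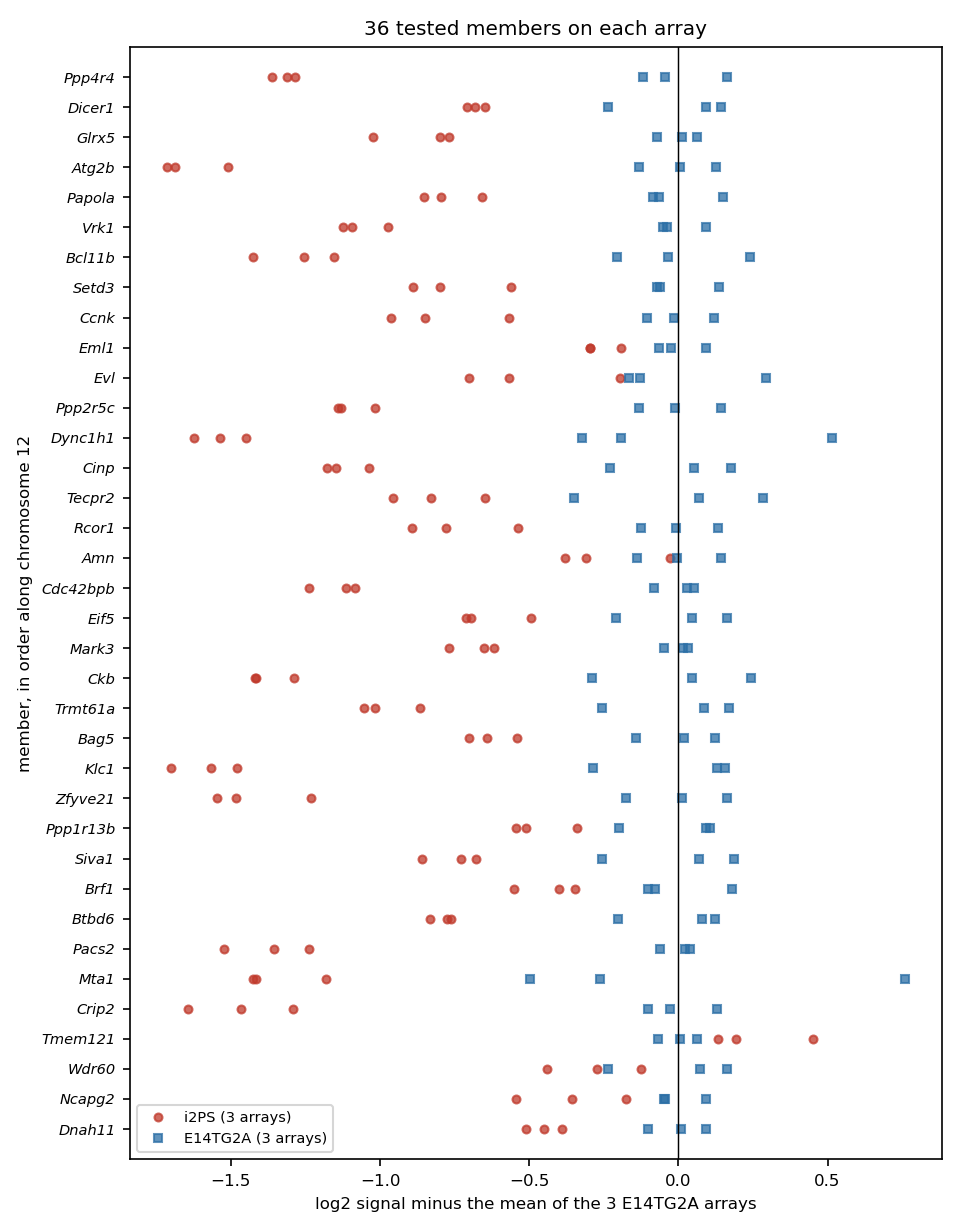
For each tested member, from top to bottom in order along chromosome 12, the points give the log2 signal on each array minus the mean of the 3 E14TG2A arrays, with i2PS as circles and E14TG2A as squares. The i2PS arrays lie below all E14TG2A arrays for 33 of the 36 members, overlap with them for Amn and Wdr60, and lie above them for Tmem121.

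All 6 members of RNA processing and protein synthesis were tested, and all 6 fell, with a median of -0.72. Counts of falls by group, here and below, stand beside 20.4% called lower among all tested genes. Trmt61a, the catalytic subunit of a tRNA methyltransferase, had log2 signals of 9.32, 9.36 and 9.51 in i2PS, against 10.12, 10.46 and 10.55 in E14TG2A, a difference of -0.98 ± 0.13 (± SE, 3 arrays per line, as for every difference given in this way). The lines did not overlap, and Trmt61a had the largest fall of these genes. Papola, which adds poly(A) tails to messenger RNA, had 8.60, 8.41 and 8.47 in i2PS, against 9.18, 9.20 and 9.41 in E14TG2A (-0.77 ± 0.11). Ccnk, the cyclin of the kinases CDK12 and CDK13, had 5.33, 4.93 and 5.05 in i2PS, against 6.01, 5.88 and 5.79 in E14TG2A (-0.79 ± 0.13). The i2PS signals of Ccnk were near background, with detection on 2 of 3 arrays, and with no background correction the difference was -0.30. Eif5, which prompts GTP hydrolysis once the ribosome has found the start codon, had 10.89, 11.11 and 10.91 in i2PS, against 11.40, 11.65 and 11.77 in E14TG2A (-0.63 ± 0.13). Brf1, part of the initiation factor of RNA polymerase III, had 6.08, 6.28 and 6.23 in i2PS, against 6.81, 6.55 and 6.53 in E14TG2A (-0.43 ± 0.12). The fall of Brf1 was the smallest here, and its call was lost without i2PS replicate 1.

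Dicer1 was called lower on the probe that stands for it but not on its others. That probe had 7.31, 7.28 and 7.34 in i2PS, against 8.13, 7.75 and 8.08 in E14TG2A (-0.68 ± 0.12). A second had 6.88, 6.91 and 6.92 in i2PS, against 7.29, 7.05 and 7.30 in E14TG2A (-0.31 ± 0.11), with the lines apart but no call. The last had 5.36, 5.76 and 5.98 in i2PS, against 5.20, 5.19 and 5.53 in E14TG2A (0.39 ± 0.17), where the lines overlapped and the difference was not called. With the mean of its probes Dicer1 differed by -0.20 and was not called, so that its direction depends on the probe read.

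Of 6 transcription factors and chromatin proteins, 3 were tested and fell. Bcl11b, a zinc finger factor needed for T cell development, had 4.50, 4.23 and 4.40 in i2PS, against 5.45, 5.62 and 5.90 in E14TG2A. No i2PS array detected it, so its fall is a bound, at least 1.63-fold lower, taken from the lowest signal of any detected probe on each array. This and every other bound holds on the background-corrected scale only, and with no background correction Bcl11b differed by -0.45. Mta1, a subunit of the NuRD deacetylase complex, had 5.52, 5.51 and 5.76 in i2PS, against 7.70, 6.68 and 6.44 in E14TG2A (-1.34 ± 0.27). The lines stood apart, while the normalized E14TG2A values spread more for Mta1 than for any other tested member, with replicate 1 highest. Its deposited signals on E14TG2A replicates 1, 2 and 3 were 183.7, 189.7 and 197.0, with replicate 1 lowest. With no background correction Mta1 differed by -0.70. Rcor1, the scaffold of the CoREST complex, had 6.76, 6.52 and 6.41 in i2PS, against 7.18, 7.29 and 7.43 in E14TG2A (-0.74 ± 0.13), again with no overlap.

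Of 4 genes of cell division and DNA repair, 3 were tested and fell. Vrk1, a kinase of chromatin and the nuclear envelope, had 7.55, 7.58 and 7.70 in i2PS, against 8.64, 8.63 and 8.77 in E14TG2A (-1.06 ± 0.10). Cinp, which binds CDK2 and acts in replication and its checkpoint, had 7.91, 7.87 and 8.02 in i2PS, against 9.23, 9.11 and 8.82 in E14TG2A (-1.12 ± 0.13). In both, the gap between the lines was wider than the range within either, while with the mean of their probes Vrk1 differed by -0.60 and Cinp by -0.56. Ncapg2, a subunit of condensin II, had 6.93, 6.56 and 6.75 in i2PS, against 7.20, 7.06 and 7.05 in E14TG2A (-0.36 ± 0.12). Its lines were separated by little, and its call was lost under 7 of 16 alternatives, including the removal of any 1 E14TG2A array.

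Of 14 kinases, phosphatase subunits and signalling proteins, 9 were tested and all 9 fell, with a median of -0.79, or -0.76 with Ppp4r4 at its bound. Zfyve21, a lipid-binding protein of focal adhesions, had 9.14, 9.20 and 9.46 in i2PS, against 10.51, 10.85 and 10.70 in E14TG2A (-1.42 ± 0.13). Cdc42bpb, a kinase that acts on actomyosin downstream of CDC42, had 7.12, 7.28 and 7.25 in i2PS, against 8.41, 8.39 and 8.28 in E14TG2A (-1.15 ± 0.10). Ppp2r5c, a regulatory subunit of protein phosphatase 2A, had 8.97, 8.96 and 9.08 in i2PS, against 9.96, 10.24 and 10.09 in E14TG2A (-1.10 ± 0.11). These 3 genes were more than 2-fold lower, with wide gaps between the lines. Ppp4r4, a regulatory subunit of protein phosphatase 4, had 4.32, 4.27 and 4.35 in i2PS, against 5.59, 5.52 and 5.80 in E14TG2A. As no i2PS array detected it, Ppp4r4 was at least 1.61-fold lower on the background-corrected scale. With no background correction it differed by -0.46.

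The other 5 fell by 0.47 to 0.79, and in each the lines did not overlap. Btbd6, an adaptor of cullin ubiquitin ligases, fell by 0.79 ± 0.12, and Siva1, a protein that promotes apoptosis, by 0.76 ± 0.13. Mark3, a kinase of microtubule-associated proteins, fell by 0.68 ± 0.10, and Bag5, a co-chaperone of HSP70, by 0.63 ± 0.11. Ppp1r13b, the p53-binding protein ASPP1, had 6.15, 5.98 and 5.95 in i2PS, against 6.29, 6.60 and 6.59 in E14TG2A (-0.47 ± 0.12), and lost its call without i2PS replicate 2 or 3.

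The cytoskeleton, motor and adhesion genes held both large falls and genes close to 0. Of 13 such genes 8 were tested and 6 fell. Klc1, the light chain of the kinesin-1 motor, had 7.04, 6.95 and 6.82 in i2PS, against 8.23, 8.65 and 8.67 in E14TG2A (-1.58 ± 0.14) on its brightest detected probe, and differed by -0.75 with the mean of its probes. Dync1h1, which carries the motor domain of cytoplasmic dynein, had 8.26, 8.35 and 8.44 in i2PS, against 10.40, 9.56 and 9.69 in E14TG2A (-1.54 ± 0.20). On these probes Klc1 was 2.99-fold and Dync1h1 2.90-fold lower, with the normalized E14TG2A replicate 1 lowest of its line for Klc1 and highest for Dync1h1. In the deposited signals E14TG2A replicate 1 was lowest for Dync1h1 too, at 774.9, against 938.6 and 1215.3. Crip2, a LIM domain protein, had 8.86, 9.04 and 9.21 in i2PS, against 10.64, 10.48 and 10.40 in E14TG2A (-1.47 ± 0.12). Setd3, which methylates actin on a histidine, had 4.93, 5.03 and 5.26 in i2PS, against 5.76, 5.75 and 5.96 in E14TG2A (-0.75 ± 0.12), with detection on 2 of 3 i2PS arrays and a difference of -0.28 with no background correction.

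The remaining 4 had smaller differences. Dnah11, a heavy chain of the dynein of motile cilia, had 7.11, 7.05 and 7.17 in i2PS, against 7.65, 7.57 and 7.46 in E14TG2A (-0.45 ± 0.11). Evl, an actin regulator of the Ena/VASP family, had 5.56, 5.06 and 5.19 in i2PS, against 5.63, 6.05 and 5.59 in E14TG2A (-0.49 ± 0.17). The highest i2PS array of Evl lay just below its lowest E14TG2A array, and its call was lost under 9 of 16 alternatives. Eml1, which binds microtubules, had 5.02, 4.91 and 4.91 in i2PS, against 5.30, 5.14 and 5.18 in E14TG2A (-0.26 ± 0.10), with a 95% confidence interval of -0.49 to -0.03. It was not called, except with cyclic loess. Wdr60, an intermediate chain of the dynein inside cilia, had 5.04, 4.87 and 5.19 in i2PS, against 5.38, 5.08 and 5.47 in E14TG2A (-0.28 ± 0.14), with an interval of -0.59 to 0.03 and overlapping lines. Eml1 was detected on 1 and Wdr60 on 2 of 3 i2PS arrays, so both are measured near background.

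Of 10 genes of metabolism, membranes and transport, 6 were tested and 5 fell. Atg2b, a lipid transfer protein of autophagosome growth, had 8.13, 8.31 and 8.10 in i2PS, against 9.82, 9.69 and 9.94 in E14TG2A (-1.64 ± 0.12). It was 3.11-fold lower, more than any other tested member. Pacs2, a sorting protein at contacts of the endoplasmic reticulum with mitochondria, had 7.28, 7.57 and 7.45 in i2PS, against 8.83, 8.85 and 8.75 in E14TG2A (-1.37 ± 0.11). Ckb, which regenerates ATP from phosphocreatine, had 12.46, 12.59 and 12.46 in i2PS, against 13.59, 13.92 and 14.12 in E14TG2A (-1.37 ± 0.14). Glrx5, a mitochondrial glutaredoxin of iron-sulfur cluster assembly, had 9.03, 9.28 and 9.25 in i2PS, against 10.06, 10.11 and 9.97 in E14TG2A (-0.86 ± 0.11). In these 4 genes the gap between the lines was wider than the range within either. Tecpr2, a gene of autophagy, had 6.18, 6.05 and 6.36 in i2PS, against 6.66, 7.08 and 7.29 in E14TG2A (-0.81 ± 0.17), with a wider spread in E14TG2A.

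Amn and Tmem121 were the members that followed least. Amn, which anchors the receptor for vitamin B12 uptake, had 5.60, 5.88 and 5.53 in i2PS, against 5.91, 6.06 and 5.77 in E14TG2A (-0.24 ± 0.13). The lines overlapped, and the 95% confidence interval ran from -0.53 to 0.05. Tmem121, a transmembrane protein, had 5.69, 6.01 and 5.75 in i2PS, against 5.57, 5.49 and 5.63 in E14TG2A (0.26 ± 0.12). All i2PS arrays of Tmem121 lay above all E14TG2A arrays, the opposite order to most members, with an interval of -0.01 to 0.52. Each of these genes was read by 1 probe, and a call was reached for neither under any of the 16 alternatives. Nor was one reached for Wdr60 (-0.28 ± 0.14), and Eml1 (-0.26 ± 0.10) lay close to Amn.

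Where a member had several detected probes, the further ones were read in a fit over all 12841 detected probes, of which 19.0% were called lower. There were 11 such members with 17 further probes, and of these probes 10 were called lower, 0 higher and 7 were not called. Their median difference was -0.51. Every probe was called lower for 6 members, namely Atg2b, Ppp2r5c, Tecpr2, Eif5, Mark3 and Btbd6. The second probe of Atg2b had 5.67, 5.83 and 5.77 in i2PS, against 7.60, 7.59 and 7.77 in E14TG2A (-1.90 ± 0.11). Klc1 had 5 detected probes, all below 0, and its further ones differed by -1.02 ± 0.12, -0.58 ± 0.21, -0.34 ± 0.12 and -0.20 ± 0.14. The probes at -0.58 and -0.20 were not called. Probes of 1 gene thus disagreed in size even where they shared a direction.

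Besides Klc1 and Dicer1, 3 members had a further probe that was not called. The second probe of Cinp had 5.25, 5.77 and 5.39 in i2PS, against 5.29, 5.66 and 5.48 in E14TG2A (-0.01 ± 0.16). Vrk1 differed by -0.85 ± 0.13 on its second probe, which was called lower, and by 0.11 ± 0.15 on its dimmest. Rcor1 differed by -0.30 ± 0.21 on its second. Which transcripts each probe reads is not given in the sources used here, and the part of splice forms in these disagreements was not tested.

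**Figure D2:**
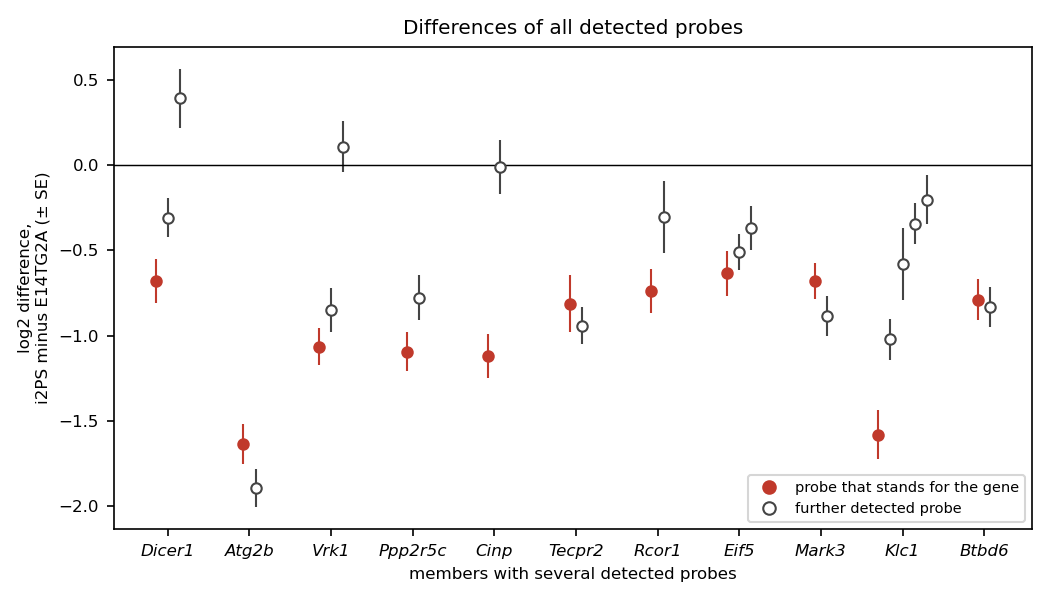
The log2 difference, i2PS minus E14TG2A, is given with its SE (3 arrays per line) for every detected probe of the 11 members with more than 1, with the probe that stands for the gene as a filled point and further probes as open points. All 5 probes of Klc1 lie below 0, and 1 probe each of Dicer1 and Vrk1 lies above it.

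Along the chromosome, falls were found in each section of the stretch, where 20.4% of all tested genes of the array were called lower. Before Dlk1, from Ppp4r4 to Begain, 11 of 19 members were tested and 10 called lower, with a median of -0.79, or -0.75 with Ppp4r4 and Bcl11b at their bounds. Between Dio3 and the immunoglobulin heavy chain locus, from Ppp2r5c to Tmem121, 22 of 29 were tested and 20 called lower, with a median of -0.90. Beyond that locus 3 of 8 were tested, Wdr60, Ncapg2 and Dnah11, and 2 were called lower, with a median of -0.36. The difference between sections was not tested. Adjacent tested members could differ widely in size, as did Amn (-0.24 ± 0.13) and Cdc42bpb (-1.15 ± 0.10), or Zfyve21 (-1.42 ± 0.13) and Ppp1r13b (-0.47 ± 0.12).

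At the proximal edge the sign of the difference changed between neighbours, as a description of where the stretch was taken to begin. The last 3 tested genes before it were all higher in i2PS. Otub2, a deubiquitinase, had 7.40, 7.60 and 7.28 in i2PS, against 7.13, 6.88 and 6.75 in E14TG2A (0.51 ± 0.13). Ddx24, an RNA helicase, had 10.21, 10.18 and 10.20 in i2PS, against 9.55, 9.99 and 9.95 in E14TG2A (0.37 ± 0.13), a call lost under 10 of 16 alternatives. Ifi27, an interferon-induced gene, had 5.93, 6.13 and 6.25 in i2PS, against 4.25, 4.67 and 4.44 in E14TG2A. As no E14TG2A array detected Ifi27, it was at least 2.22-fold higher in i2PS on the background-corrected scale. With no background correction Ifi27 differed by 0.61. Just inside the edge, Ppp4r4 and Dicer1 were the first tested members, and at the other end Dnah11 was the last tested gene. Within the stretch, the imprinted Dlk1 differed by -0.95 ± 0.17, while no i2PS array detected Meg3 or Rian. On the background-corrected scale these were lower by at least 1.70-fold and 5.48-fold, and with no background correction they differed by -0.54 and -1.44.

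**Figure D3:**
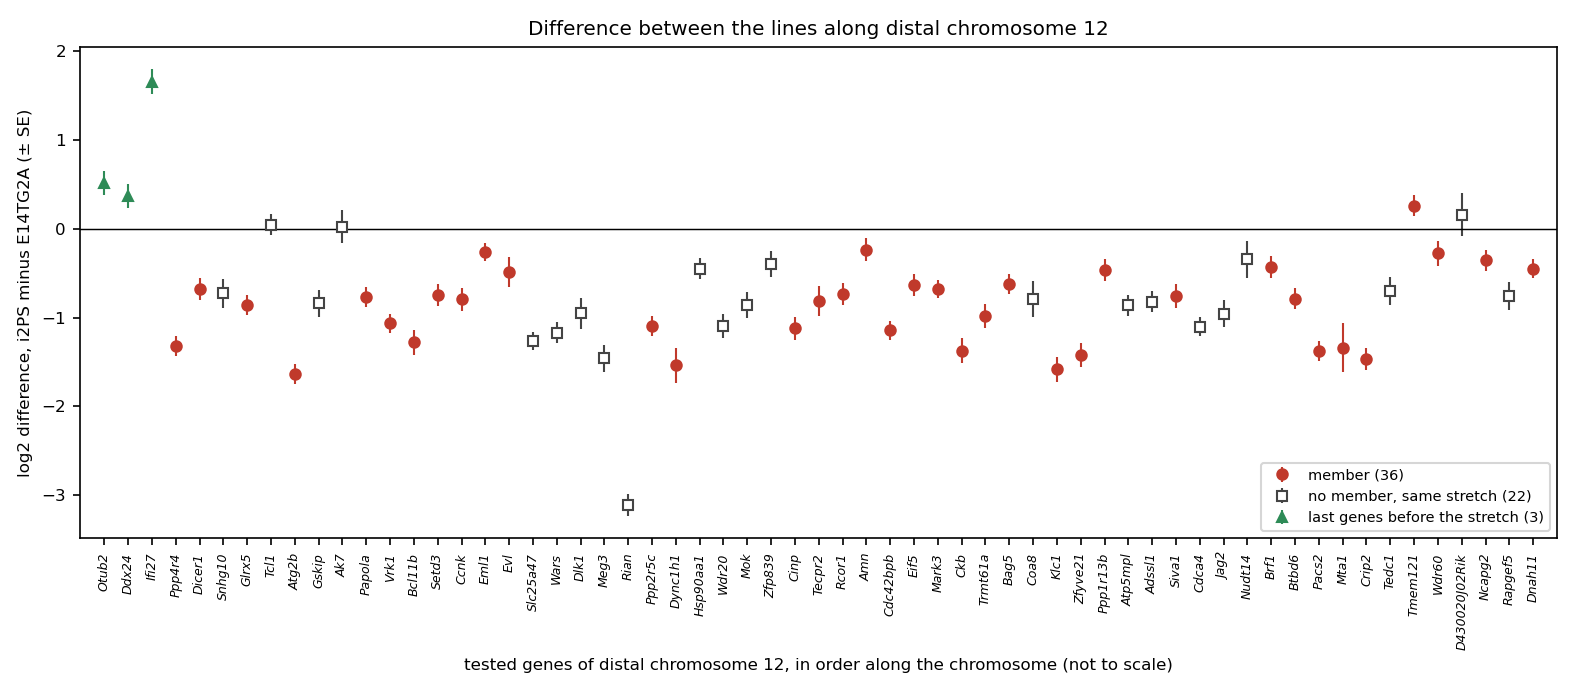
The log2 difference, i2PS minus E14TG2A, is given with its SE (3 arrays per line) for tested genes in order along the chromosome, not to scale, with the 36 members as filled circles, 22 other genes of the stretch as open squares and the 3 genes before it as triangles. The triangles lie above 0, and Tmem121 is the only member that does.

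For members that were not tested the arrays gave no level to compare. Of the 15 with a probe, 9 were detected on no array by any of their 13 probes, namely Akt1, Begain, Cyp46a1, Degs2, Itgb8, Kif26a, Slc25a29, Tnfaip2 and Yy1. Their deposited signals were 84.2 to 101.6 in i2PS and 78.9 to 110.0 in E14TG2A. Akt1, a kinase downstream of PI3-kinase, and Yy1, a zinc finger factor, are active in most cell types, and each had 1 probe here. The other 6 were detected on 1 or 2 arrays of a line. Wdr25 had signals of 98.0 to 99.6 in i2PS, with no detection, and 91.6 to 154.0 in E14TG2A, with detection on 2 arrays. Xrcc3, a gene of recombination repair, was detected on 2 arrays of each line, at 106.3 to 122.0 in i2PS and 94.7 to 152.8 in E14TG2A. The deposited signals of Xrcc3, not normalized between arrays, overlapped between the lines. So did those of Glrx5, Eif5 and Siva1, which were called lower after normalization. Clmn, Esyt2, Inf2 and Sp4 make up the rest. Traf3, Ccdc85c, Crip1, Cdca7l and Vipr2 had no probe with that single symbol in the annotation used here.

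Genes that work with a member, or resemble it, but were not taken for their place, were called in both directions. Of 124 such partners in 18 lists, 111 had a probe and 88 were tested. Of these, 9 were called lower and 23 higher, beside 20.4% and 23.5% of all tested genes, and 56 were not called, with a median of 0.06. Without the 3 partners on chromosome 12, 9 of 85 were lower and 22 higher. With equal medians 1 partner was called lower and 6 higher, and of the partners named here Cdk12, Eif2s2, Mbd2, Slc6a8 and Iba57 kept their call. With no background correction some were closer to 0, Cdk12 at 0.39, Fip1l1 at 0.32, Mbd2 at -0.71, Kif5c at -0.64, Iba57 at 0.51, Eif5b at -0.29 and Rcor2 at 0.17.

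Partners in RNA and protein synthesis had more calls higher than lower. Here and in the lists below, counts stand beside 23.5% higher and 20.4% lower among all tested genes, and no direction of a list is read from them. Of 7 microRNA genes listed with Dicer1, 2 rose and 0 fell. Dgcr8, which holds the primary microRNA for Drosha, had 8.17, 8.35 and 8.34 in i2PS, against 7.39, 7.75 and 7.80 in E14TG2A (0.64 ± 0.13, limma adjusted p = 0.0043). Of 11 polyadenylation genes listed with Papola, 3 rose and 0 fell, Fip1l1 most (0.59 ± 0.13, limma adjusted p = 0.0052). Of 5 genes listed with Ccnk 2 rose and 0 fell. Cdk12, its kinase, had 5.62, 6.13 and 6.17 in i2PS, against 5.17, 4.77 and 4.87 in E14TG2A (1.03 ± 0.17). It was detected on 3 i2PS and 2 E14TG2A arrays, so it was tested only through the line where it was higher. Its E14TG2A signals were near background. The lines did not overlap for Dgcr8 or Cdk12. Of 6 initiation genes listed with Eif5, 2 rose and 2 fell, with Eif2s2, a subunit of the factor that brings the initiator tRNA, at 0.73 ± 0.10 and Eif5b, which joins the ribosomal subunits, at -0.50 ± 0.16. The call of Eif5b was lost under 7 of 16 alternatives, and its lines overlapped. Tbp, listed with Brf1, fell by 0.41 ± 0.11, a call lost under 3 alternatives.

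In chromatin and phosphatase lists the calls again went both ways. Rcor2, a relative of Rcor1, was higher by 0.50 ± 0.13, with detection on 1 E14TG2A array and a call lost under 3 alternatives. Of 8 NuRD genes listed with Mta1, 2 rose and 1 fell. Mbd2, which binds methylated DNA, had 5.65, 5.61 and 5.67 in i2PS, against 6.88, 6.95 and 7.20 in E14TG2A (-1.37 ± 0.12), and Chd4, a remodelling ATPase, was higher by 0.66 ± 0.14. None of 4 condensin II genes was called by limma. Of 9 phosphatase genes 2 rose and 1 fell, with Ppp4c, the catalytic subunit of protein phosphatase 4, at 0.46 ± 0.15 and its partner Ppp4r3b at -0.43 ± 0.14. These calls were lost under 5 and 7 alternatives. None of 4 genes listed with Akt1 was called.

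Among motors, metabolic genes and adaptors, calls were found in both directions. The only motor gene called higher, Kif5a, was tested only through the line where it was higher. Of 9 dynein and dynactin genes 2 fell and 0 rose, beside 20.4% lower and 23.5% higher among all tested genes. Dync1li1, a light intermediate chain, had 6.98, 6.93 and 6.86 in i2PS, against 7.50, 7.60 and 7.63 in E14TG2A (-0.65 ± 0.10, limma adjusted p = 0.000888). Kif5c, a kinesin heavy chain, fell by 1.01 ± 0.15, whereas Kif5a, another, was detected in i2PS only and was at least 1.13-fold higher. The call of Kif5a was lost under 5 alternatives, and with no background correction it differed by 0.16. Both tested genes listed with Ckb rose. Slc6a8, the creatine transporter, had 9.78, 9.88 and 9.77 in i2PS, against 8.83, 8.77 and 8.74 in E14TG2A (1.03 ± 0.10, limma adjusted p = 6.18e-05), with the lines far apart. Of 4 iron-sulfur genes listed with Glrx5, 2 rose, with Iba57, an assembly factor, at 0.86 ± 0.11. Zfp42, a relative of Yy1 and a marker of pluripotent cells, was higher by 0.38 ± 0.12, a call lost under 8 alternatives. Of the TRAF adaptors Traf4 fell by 0.96 ± 0.13, and Traf1, not detected in E14TG2A, was at least 1.13-fold higher. Neither of the 2 tested SP factors was called.

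**Figure D4:**
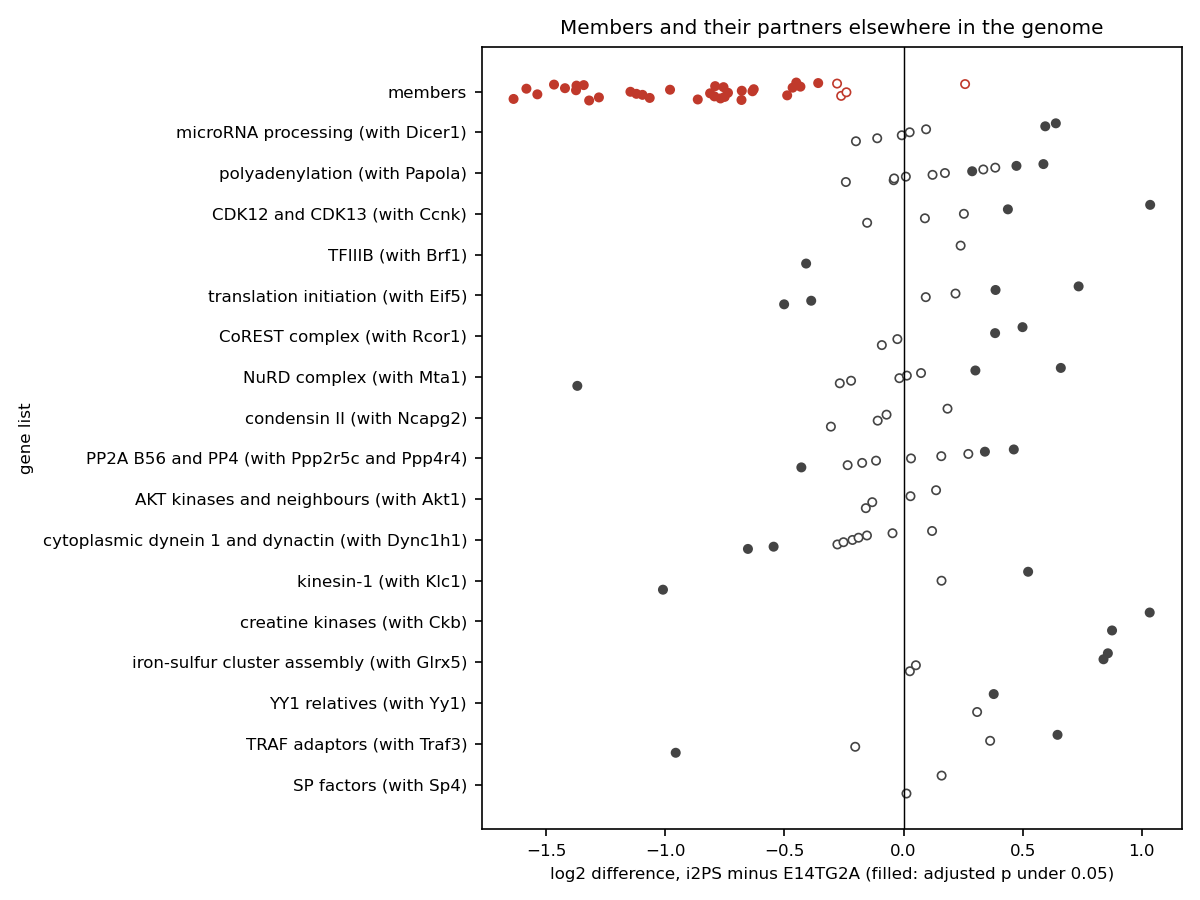
The horizontal axis is the log2 difference, i2PS minus E14TG2A, with 1 point per tested gene, filled where the limma adjusted p was under 0.05, for the members at the top and 17 of the 18 partner lists under them. Filled points of members all lie below 0, in the comparison that marked the stretch. Of 86 plotted partners, 9 have filled points below 0 and 22 above. Among all tested genes 20.4% were called lower and 23.5% higher.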

How the data were processed

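RNA of 6 cultures was read on Illumina bead arrays, with GenomeStudio, per the submitters' processing notes (version not given in the sources used here). The authors deposited linear intensity values per probe, not normalized between arrays, and a detection p-value for each. A second deposited table of intensity values has near-equal medians (96.7) and distributions on all arrays, as quantile normalization gives. It was used as an alternative.

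From the first table, background was corrected by normexp with an offset of 16 and arrays were quantile normalized (neqc in limma 3.58.1, R 4.3.3), then log2 was taken. Of 45281 probes, 34885 had 1 symbol in GEO's platform annotation, 18 several and 10378 were unlisted. Symbols were updated through the RefSeq gene table (GRCm38.p6), 34807 by gene ID and 11 by accession, and 67 stayed as given. Detection meant a p under 0.01. The gene's detected probe of highest mean signal stood for it. Lines were compared with lmFit and eBayes and Benjamini-Hochberg adjustment, in steps tested on simulated data. P-values set each difference against the spread between these cultures, moderated across genes, and the number of arrays limits their precision. With 1 line per group, they say nothing of the spread between lines of a kind.

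Every member is accounted for, and the largest rise and fall past the threshold of each partner list are named, except for 1 list that is counted but not reported here. Members and lists were chosen with earlier results of these data known. Alternatives changed the background correction, normalization, filter, probe rule, variance model, source table and replicate block, or left out 1 array.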

Additional observations from a re-analysis of the deposited data

How the results depend on the processing

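Of 16 alternatives, 15 called 28 to 33 members lower, and equal medians in place of quantile normalization called 12 of 36. Those 15 called 2782 to 4209 genes in all, in either direction. None called a member higher. With equal medians 884 genes were called in all, against 3803, and the median of all tested genes was 0.18, against 0.03. The cause was not tested.

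The members' median was -0.62 with normexp and an offset of 50, -0.54 with no background correction, -0.69 with equal medians, -0.83 with cyclic loess, -0.55 in the authors' processed table and -0.68 with dim probes kept, which brings in all 51 members on the array. Leaving out 1 array gave -0.86 (without E14TG2A replicate 1) to -0.73, and 29 to 31 members lower. Before Dlk1 the median was -0.63 with normexp, -0.46 with no background correction, -0.69 with equal medians, -0.46 in the authors' table, -0.71 with dim probes kept, and -0.84 to -0.73 with 1 array left out. Between Dio3 and the heavy chain locus it was -0.81, -0.72, -0.73, -0.72 and -0.76 under these settings in the same order, -0.80 with the mean of a gene's probes and -1.01 to -0.82 with 1 array left out. Beyond that locus it was -0.22 with no background correction, -0.23 with equal medians, -0.22 in the authors' table and -0.45 to -0.26 with 1 array left out.

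Partners numbered 1 lower and 6 higher with equal medians. With 1 array left out they were 5 to 10 lower and 16 to 22 higher, the 5 without i2PS replicate 2. Of 570 values of single members under alternatives, 0 reversed, 38 lost their call and 1 gained one.

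Deviations of same-numbered arrays correlated at 0.01, -0.05 and 0.07, and those of differently numbered arrays at -0.08 to 0.06. These values show no deviation shared by number, but they cannot settle whether cultures were paired. With the replicate block 31 members, Evl being lost, and 3642 genes were called. A block for the slide could not be fitted, as slides are not given here. Signals near background limit Ppp4r4, Bcl11b, Setd3, Ccnk, Eml1 and Wdr60.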

Other observations

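The stretch also holds 22 tested genes outside the members, found by place alone. Apart from Dlk1, Meg3 and Rian, 14 of 19 were called lower and 0 higher, with a median of -0.79, where 20.4% of all tested genes were lower. These values come from the comparison that marked the stretch and are descriptions. Wars, which charges tRNA with tryptophan, had 8.50, 8.66 and 8.61 in i2PS, against 9.61, 9.93 and 9.73 in E14TG2A (-1.17 ± 0.12). Slc25a47, a mitochondrial carrier known from liver, had 4.95, 4.99 and 5.04 in i2PS, against 6.27, 6.24 and 6.26 in E14TG2A (-1.27 ± 0.10), with i2PS signals near background and detection on 2 of 3 i2PS arrays. Cdca4, a cell cycle regulator, had 10.27, 10.27 and 10.32 in i2PS, against 11.25, 11.48 and 11.44 in E14TG2A (-1.10 ± 0.11). In these 3 genes the lines were far apart. Jag2, a Notch ligand, fell by 0.96 ± 0.15, Atp5mpl, a small protein of ATP synthase, by 0.86 ± 0.12, and Hsp90aa1, a cytosolic chaperone, by 0.45 ± 0.12.

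Of the 19 genes, 5 were not called. Tcl1, a co-activator of AKT kinases expressed in embryonic stem cells, had 9.43, 9.50 and 9.43 in i2PS, against 9.58, 9.39 and 9.26 in E14TG2A (0.04 ± 0.11), and its lines overlapped. Ak7, an adenylate kinase of cilia, had 5.89, 5.85 and 6.01 in i2PS, against 5.43, 6.05 and 6.21 in E14TG2A (0.02 ± 0.18), also with overlap. Both lie between members that were lower on either side, Tcl1 between Glrx5 and Atg2b and Ak7 between Atg2b and Papola. The others were D430020J02Rik (0.15 ± 0.24), Nudt14 (-0.34 ± 0.21) and Zfp839, which no i2PS array detected, with log2 signals of 4.46, 4.80 and 4.86 in i2PS, against 5.18, 4.87 and 5.27 in E14TG2A.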
